A study of Mus musculus with 22 samples.

Results

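Whole-lung RNA from mice that had inhaled methacholine (MCh) for weeks was set directly against lung RNA from mice that had inhaled it for days. The members are the 4 long MCh and the 4 short MCh libraries, 8 of the 22 libraries of the series, taken by their labelled challenge and protocol. All were lungs of BALB/c mice that, by the treatment text, received a sensitizing i.p. injection when 49 days old, a boost when 63 days old and aerosols from day 70 of life, while the sample titles call the MCh and PBS mice normal. The long MCh mice inhaled MCh 3 times a week for 4 weeks (30 days in the titles), and the short MCh mice on 3 consecutive days (4 days in the titles). Where another background was needed, 3 long PBS and 3 short PBS lungs, given buffer, and 4 long OVA and 4 short OVA lungs, given ovalbumin, were used. The long and short MCh mice began the challenge at the same age, so challenge length, age at collection and time since sensitization cannot be told apart, and the MCh dose was not given in the sources used here.

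Methacholine is a stable relative of acetylcholine that activates muscarinic receptors. On airway smooth muscle these receptors couple to Gq and calcium release, and the muscle contracts and narrows the airway, which is why MCh is the standard agent for measuring airway responsiveness. Repeated constriction is studied as a source of mechanical load on the airway wall, whose remodelling involves collagen deposition, mucus cell change and smooth muscle growth. Inhaled exposures and handling also act on stress-hormone, heat shock and immediate early genes, which respond within minutes to hours.

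The lung label was checked first, because the design text of the series speaks of tracheal tissue. Scgb1a1, the secretory protein of club cells, was at 39510, 39650, 33660 and 39520 FPKM (fragments scaled to transcript length and library size) in long MCh libraries a to d, against 47270, 40760, 44280 and 52950 FPKM in short MCh libraries 1 to 4. The surfactant gene Sftpc was at 6691, 4963, 5081 and 5496 FPKM in long MCh lungs, against 6031, 6373, 6043 and 13050 FPKM in short MCh lungs. The tracheal cartilage genes Matn1 and Snorc were listed at 0 in all 8 libraries, and the cartilage list summed to 14.2 to 21.9 FPKM in long MCh lungs and 9.85 to 31.6 FPKM in short MCh lungs. Club cell and surfactant genes were thus high in every library, and cartilage genes were near 0 or low.

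The libraries were of unequal quality. Long MCh libraries a and c and short MCh library 1 listed 34.3%, 33.8% and 28.3% of 20938 gene rows at 0, whereas the other 5 MCh libraries listed 23.0 to 24.5% and the PBS and OVA libraries 22.5 to 25.3%. These 3 libraries, each over the limit of 28%, are called sparse here. List medians and some single genes are given with and without them. Of the single genes whose MCh differences are given below, Muc5b, Chrm2, Per1 and Klf9 changed sign without them and the rest kept it. By the step size of the values, depth was estimated as the fragments per kilobase of transcript that 1 FPKM stood for. It was 14.8, 16.2 and 16.98 in long MCh libraries a and c and short MCh library 1, the sparse ones. In the other 5 MCh libraries it was 20.4 to 22.4. Long OVA library b was also at 16.98, with 25.3% of rows at 0. Short MCh library 4 stood apart in another way: its deviation from the overall mean had a rank correlation of -0.65 with transcript length across genes, against 0.05 to 0.46 in the long MCh libraries and -0.001 to 0.25 in the other short MCh libraries, so its short transcripts read high and its long ones low.

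Only a pair of genes passed the test across the 8 libraries, and they are copies of each other. Of 14996 genes tested by limma on log2(FPKM + 0.5), 2 had a Benjamini-Hochberg adjusted p under 0.05 (0.0133%). Rps27, which encodes a zinc-finger protein of the small ribosomal subunit, was listed higher in long MCh lungs. Its intronless copy Rps27rt was listed lower, so 1 gene (0.00667%) was called in each direction. The Rps27 transcript lies at chr3:90212671-90213651 on the minus strand (GRCm38) with 4 exons, and the Rps27rt transcript at chr9:114982366-114982739 on the minus strand with 1 exon. The coding sequence is shown because it is identical over all 255 bases in both genes. Capitals mark the 2 bases on either side of each of the 3 exon junctions of Rps27, across which Rps27rt carries the same letters with no intron between them. Sequence and coordinates here and below are from the GENCODE mouse annotation of this build.
Rps27: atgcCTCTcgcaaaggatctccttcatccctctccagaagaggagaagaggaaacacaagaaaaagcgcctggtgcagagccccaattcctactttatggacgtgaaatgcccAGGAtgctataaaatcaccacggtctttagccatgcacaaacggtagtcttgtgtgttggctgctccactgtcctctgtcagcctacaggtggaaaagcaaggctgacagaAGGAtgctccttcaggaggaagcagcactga

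Across the whole transcripts, an uninterrupted run of 341 bases was shared, and 292 of the 296 possible 50-base windows of the Rps27 transcript (98.6%) also occurred in Rps27rt. Reads from the shared stretch could be listed under either gene, so the values of each gene alone do not show its own expression. Rps27 was at 411, 425, 359.5 and 404 FPKM in long MCh libraries a to d, against 1.46, 0.167, 0.141 and 2.08 FPKM in short MCh libraries 1 to 4. Rps27rt was at 5.92, 24.9, 20.6 and 41.4 FPKM in long MCh lungs, against 1269, 1085, 981 and 2412 FPKM in short MCh lungs. Thus the 4 long MCh libraries listed nearly all of the pair under Rps27 and the 4 short MCh libraries nearly all under Rps27rt, with no overlap. The log2 fold change was 8.36 ± 0.43 (SE) for Rps27 (adjusted p = 5.02e-05) and -6.11 ± 0.51 for Rps27rt (adjusted p = 0.00266, limma).

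Added together, the pair differed far less. The sum was taken from the transcript table. Rps27 stands higher there than in the gene table (818 against 411 FPKM in long MCh library a). Rps27rt changes less (1434 against 1269 FPKM in short MCh library 1), so the size of the difference in the sum depends on the table. The sum was 824, 873, 738 and 849.9 FPKM in long MCh lungs (821 ± 58.9, SD, n = 4) against 1437, 1227, 1109 and 2731 FPKM in short MCh lungs (1626 ± 749, SD, n = 4). The 4 long MCh sums all lay below the 4 short MCh sums, with a log2 difference of -0.89 (exact permutation p = 0.0286, two-sided, the smallest that 70 splits allow). Rps27 took 94.5 to 99.2% of this sum in long MCh lungs and 0.0253 to 0.202% in short MCh lungs. In the PBS and OVA groups the same all-or-nothing split did not follow the protocol: Rps27 was the higher of the pair in 2 of 3 long PBS, 1 of 3 short PBS, 2 of 4 long OVA and 3 of 4 short OVA libraries. Without the 3 sparse libraries neither gene passed the test (adjusted p = 0.164 for Rps27 and 0.203 for Rps27rt, limma). The log2 fold change was then 8.65 for Rps27 and -5.39 for Rps27rt, from 2 long and 3 short MCh libraries. The number of genes called was then 0, with 632 of 14857 (4.25%) at an unadjusted p under 0.05.

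**Figure D1:**
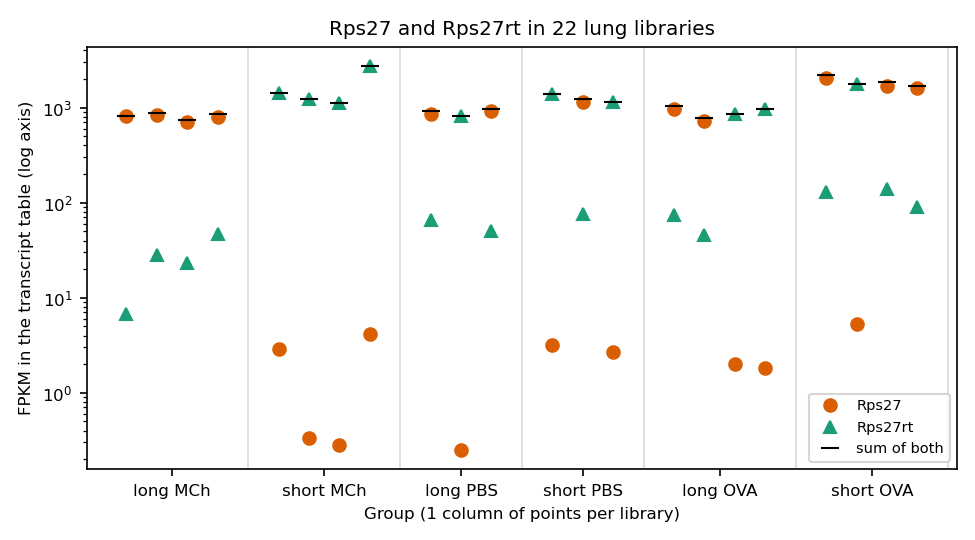
FPKM of Rps27 and Rps27rt in the transcript table, on a log axis, in each of the 22 libraries, with 1 point per gene and library and a dash for the sum of both genes. All 4 long MCh libraries list Rps27 as the higher of the pair and all 4 short MCh libraries list Rps27rt, while PBS and OVA libraries of both protocols hold either order.

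Beyond this pair, the differences below did not pass the adjusted test and are described by their values. At an unadjusted p under 0.05, 352 genes (2.35%) were higher and 720 (4.8%) lower in long MCh lungs, 1072 (7.15%) in all, and 460 genes (3.07%) had all 4 long MCh values above all 4 short MCh values, while 610 (4.07%) had all 4 below. The median log2 fold change over all tested genes was -0.08, and 0.07 without the sparse libraries. Non-overlap followed transcript length. Among the shortest of 5 equal groups of genes, with a median transcript of 1187 bases, 6 genes were higher and 331 lower without overlap, and the median log2 fold change was -0.34. Among the longest, with a median of 6203 bases, 237 were higher and 13 lower, and the median was 0.20. The rank correlation of the log2 fold change with transcript length was 0.44 over 14956 genes, 0.62 without the sparse libraries and 0.21 without short MCh library 4. Genes are not independent replicates, and their shared libraries set this value. With each library's length trend removed, a correction applied to this count after seeing the data, 506 genes (3.38%) were higher and 385 (2.57%) lower without overlap. The plot of list medians gives each list it holds with this correction as well.

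**Figure D2:**
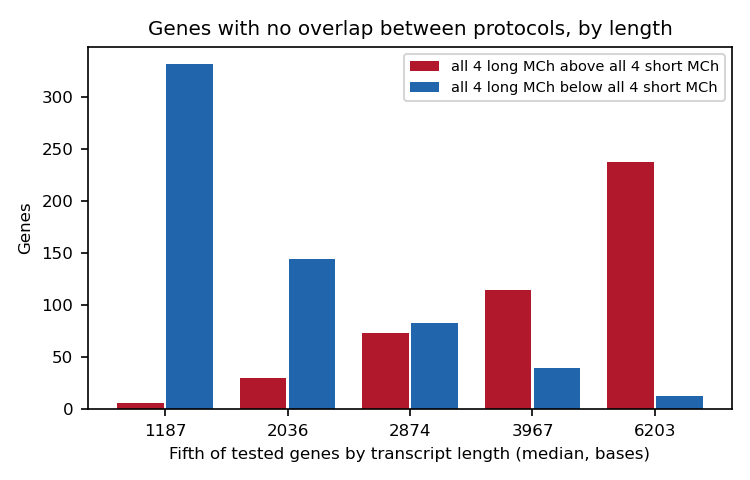
Number of tested genes whose 4 long MCh values all lie above (red) or all below (blue) the 4 short MCh values, in 5 equal groups of genes ordered by transcript length (x axis, median length in bases). Lower genes outnumber higher genes 331 to 6 among the shortest transcripts, and higher genes outnumber lower genes 237 to 13 among the longest.

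The 9 genes with the smallest p that were higher in long MCh lungs, after the Rps27 pair, included matrix, endothelial and growth genes. Each of the 18 genes with the smallest p, 9 in each direction, had an adjusted p of 0.627 (limma). Esm1, an endothelial proteoglycan of sprouting vessels (chr13:113209659-113218098), was at 51.9, 34.3, 29.9 and 34.8 FPKM in long MCh lungs, against 15.8, 16.2, 15.3 and 20.2 FPKM in short MCh lungs. The lowest long MCh value was well above the highest short MCh value, and the log2 fold change was 1.12 ± 0.20, with 0.99 without the sparse libraries and 0.19 in long against short PBS lungs. Ccnd1, the cyclin that drives entry into S phase, was at 36.1, 32.2, 32.7 and 32.6 FPKM in long MCh lungs, against 23.8, 19.3, 21.2 and 20.8 FPKM in short MCh lungs. Its groups were narrow and did not overlap (0.64 ± 0.14 on the log2 scale). Magi3, a junctional scaffold protein, was at 302, 297, 255 and 254 FPKM in long MCh lungs, against 81.7, 182, 197 and 111 FPKM in short MCh lungs, where libraries 1 and 4 were lowest (1.04 ± 0.27).

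Spock2, a testican proteoglycan of the extracellular matrix, was at 58.5, 71.8, 70.9 and 75.9 FPKM in long MCh lungs, against 35.9, 43.6, 40.7 and 20.1 FPKM in short MCh lungs (1.02 ± 0.24). Ndnf, a secreted factor with fibronectin type III repeats, was at 46.3, 46.5, 53.2 and 58.4 FPKM in long MCh lungs, against 31.8, 26.4, 27.01 and 12.01 FPKM in short MCh lungs (1.13 ± 0.28). In both genes the groups did not overlap, and short MCh library 4, the one in which long transcripts read low, was the lowest. The PBS lungs, which received no MCh, showed long minus short differences of 0.68 for Spock2 and 1.07 for Ndnf. All 9 of these genes were also positive in PBS lungs. They stayed positive without the sparse libraries, in a part of the same libraries that they were chosen in.

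The 9 genes with the smallest p that were lower in long MCh lungs included stress-response and cytotoxic lymphocyte genes. Maff, a small Maf transcription factor induced by stress (chr15:79346621-79359076), was at 16.4, 19.4, 14.6 and 14.4 FPKM in long MCh lungs, against 29.6, 32.8, 31.1 and 35.8 FPKM in short MCh lungs. The groups were separated by a wide gap (-0.98 ± 0.16), and the difference was -0.97 without the sparse libraries and -0.86 in PBS lungs. Ddit4, a stress- and glucocorticoid-induced inhibitor of mTORC1 (chr10:59949669-59951834), was at 10.03, 7.70, 3.99 and 11.1 FPKM in long MCh lungs, against 22.6, 32.9, 21.4 and 19.5 FPKM in short MCh lungs (-1.56 ± 0.31). Every short MCh value was above every long MCh value, and long MCh library c was the lowest. Arl4d, a small GTPase, was at 72.4, 60.4, 93.3 and 60.2 FPKM in long MCh lungs, against 108, 129, 108 and 174 FPKM in short MCh lungs (-0.85 ± 0.21). Dynlt1b, a dynein light chain with near-identical copies in the mouse genome, differed by -1.10 ± 0.23, the cystatin Cst7 of cytotoxic cells by -1.75 ± 0.40 and the granzyme Gzmk by -1.63 ± 0.38. All 9 were also negative in PBS lungs and without the sparse libraries. With each library weighted by its fit to the group means (limma array weights, 0.152 for long MCh library a to 11.1 for short MCh library 2), 684 of the 14996 genes (4.56%) were called, 350 higher and 334 lower. The 18 genes were chosen by p in these same libraries. Their calls with array weights and their signs without the sparse libraries are therefore no separate evidence.

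Genes of the acute stress response were mostly at lower levels in long than in short MCh lungs. In the glucocorticoid-responsive list, 14 of 17 tested members had a negative log2 fold change, 4 were lower without overlap (beside 4.07% of all genes) and 0 higher, and the median was -0.56 (-0.59 without the sparse libraries). With the length trend removed, 2 were lower without overlap and the median was -0.39. The 3 positive members were Per1 (0.005 ± 0.28), Klf9 (0.05 ± 0.17) and Zbtb16 (0.34 ± 0.50), while Fkbp5 differed by -0.06 ± 0.22. Tsc22d3, the glucocorticoid-induced leucine zipper, was at 603, 456, 448 and 390 FPKM in long MCh lungs, against 668, 775, 793 and 1010 FPKM in short MCh lungs (-0.78 ± 0.19), with the highest long MCh value below the lowest short MCh value. In the metallothionein, antioxidant and heme list 13 of 17 were negative, with 4 lower (beside 4.07% of all genes) and 0 higher without overlap and a median of -0.35 (-0.32 without the sparse libraries, -0.28 with the length trend removed). Mt2, a zinc-binding metallothionein (chr8:94172664-94173568), was at 27.6, 37.01, 52.3 and 51.1 FPKM in long MCh lungs, against 104, 77.97, 78.1 and 152 FPKM in short MCh lungs (-1.27 ± 0.27). Its paralog Mt1 was at 104, 44.6, 41.1 and 45.9 FPKM in long MCh lungs, against 110.3, 81.3, 79.9 and 148 FPKM in short MCh lungs (-0.89 ± 0.32), so long MCh library a alone reached into the short MCh range. The antioxidant enzyme Gpx2 was at 9.41, 15.8, 14.1 and 17.2 FPKM in long MCh lungs, against 41.1, 24.04, 23.7 and 41.5 FPKM in short MCh lungs (-1.16 ± 0.27), and the heme oxygenase Hmox1 differed by -1.10 ± 0.35. Without the sparse libraries Gpx2 differed by -0.78 and Hmox1 by -0.72. Mt1 and Mt2 stand on both lists.

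The heat shock list held 17 of 19 negative members, with 3 lower (beside 4.07% of all genes) and 0 higher without overlap and a median of -0.26 (-0.24 without the sparse libraries, -0.19 with the length trend removed). It was -0.48 without short MCh library 4, -0.42 without long MCh library b and -0.17 without short MCh library 3. Dnajb1, an Hsp40 co-chaperone, was at 23.01, 43.6, 32.7 and 25.2 FPKM in long MCh lungs, against 61.9, 53.3, 60.5 and 47.6 FPKM in short MCh lungs (-0.87 ± 0.21), with no overlap. The inducible Hsp70 gene Hspa1b, whose reads could be shared with its near-identical paralog Hspa1a, was at 46, 93.1, 43.9 and 19.9 FPKM in long MCh lungs, against 143, 119, 134 and 37.8 FPKM in short MCh lungs. Its groups overlapped, since short MCh library 4 lay within the long MCh range (-1.12 ± 0.51). In the immediate early list 19 of 24 were negative, with 4 lower (beside 4.07% of all genes) and 0 higher without overlap and a median of -0.29 (-0.15 without the sparse libraries). With the length trend removed, 1 was lower without overlap and the median was -0.23. Klf2, a flow-sensing transcription factor, differed by -0.66 ± 0.17, Ier2 by -0.70 ± 0.24 and the mRNA-decay factor Zfp36 by -0.53 ± 0.19, whereas Fos, the textbook member, differed by -0.27 ± 0.43 and was 0.11 without short MCh library 1. In PBS lungs the same lists had long minus short medians of -0.99 (glucocorticoid), -0.13 (metallothionein), -0.87 (heat shock) and -0.42 (immediate early). The clock genes gave no single picture in MCh lungs: Per1 was at 26.9, 23.4, 35.2 and 21.9 FPKM in long MCh lungs, against 27.5, 33.1, 35.4 and 14.8 FPKM in short MCh lungs, with overlapping groups, Nr1d1 differed by 0.70 ± 0.30 and Nfil3 by -0.68 ± 0.24. The clock list median was 0.13 in MCh lungs (-0.04 without short MCh library 4, -0.05 with the length trend removed) and -0.55 in PBS lungs.

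Collagen genes were higher on average in long MCh lungs in every case. All 19 tested fibrillar and basement membrane collagen genes had a positive log2 fold change, 6 were higher without overlap (beside 3.07% of all genes) and 0 lower, and the median was 0.68. Their transcripts are long, with a median of 6119 bases. Among the 2991 genes with the longest transcripts, 237 were higher without overlap and the median log2 fold change was 0.20. Col4a3, a chain of the alveolar basement membrane network (chr1:82586921-82722059), was at 50.3, 64.3, 67.96 and 65.9 FPKM in long MCh lungs, against 34.5, 39.9, 34.5 and 14.7 FPKM in short MCh lungs (1.08 ± 0.29). Col5a2, a fibril-nucleating chain, was at 27.98, 21.8, 37.3 and 32.5 FPKM in long MCh lungs, against 20.01, 15.8, 14.4 and 9.74 FPKM in short MCh lungs (0.99 ± 0.25). Neither gene's groups overlapped, and the other genes without overlap were Col4a2 (1.03 ± 0.31), Col4a5, Col6a3 and the fibril-associated Col12a1 (0.96 ± 0.31). The main interstitial chain Col1a1 was at 13, 15.3, 13.6 and 22.4 FPKM in long MCh lungs, against 14.5, 9.37, 7.64 and 3.51 FPKM in short MCh lungs (0.96 ± 0.38), and long MCh libraries a and c lay below short MCh library 1. Col3a1 differed by 0.51 ± 0.30. None of the 19 passed the adjusted test.

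The collagen median ranged from 0.50 without short MCh library 4 to 0.77 when each library was left out in turn. It was 0.998 without the sparse libraries, where all 19 genes were higher without overlap in the 2 remaining long MCh against the 3 remaining short MCh libraries, beside 22.9% of all genes. With the length trend removed it was 0.47, with 7 genes higher and 0 lower without overlap. PBS lungs had a long minus short collagen median of 0.57, with 19 of 19 positive, and OVA lungs 0.73.

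**Figure D3:**
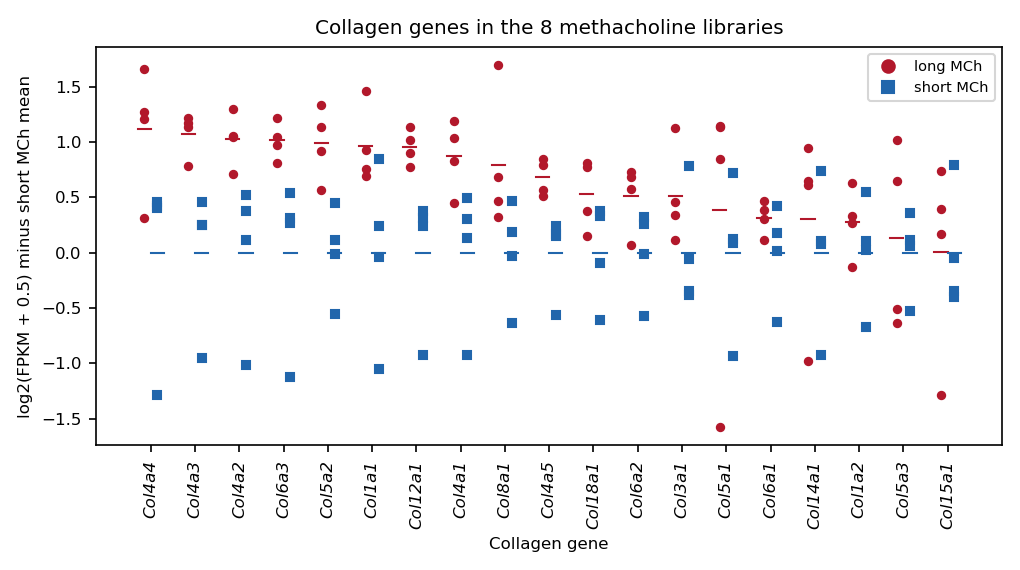
The log2(FPKM + 0.5) of the 19 fibrillar and basement membrane collagen genes, as the difference from the short MCh mean of each gene (y axis), in the 4 long MCh (red circles, left) and 4 short MCh (blue squares) libraries, 1 point per library and a dash for the group mean. The long MCh mean lies above the short MCh mean in each of the 19 genes, from 0.003 for Col15a1 to 1.11 for Col4a4, and 6 genes have no overlap.

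The elastic fibre and crosslinking list was less even, with 14 of 22 positive. Without overlap, 2 were higher and 1 lower, beside 3.07% higher and 4.07% lower of all genes. The median was 0.26 (0.47 without the sparse libraries, 0.15 without long MCh library d and 0.08 without short MCh library 4). Fbn1, the microfibril backbone (chr2:125300594-125507993), was at 58.8, 61.95, 63.9 and 96.2 FPKM in long MCh lungs, against 45.5, 40.02, 35.6 and 17.7 FPKM in short MCh lungs (1.06 ± 0.29), with no overlap. Eln, the elastin gene, differed by 0.64 ± 0.27 and the crosslinking enzyme Loxl2 by 0.74 ± 0.28.

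Ribosomal protein and respiratory chain genes, whose transcripts are short, were mostly at lower levels in long MCh lungs. Of 33 cytosolic ribosomal protein genes, with a median transcript of 833 bases, 32 had a negative log2 fold change. Without overlap, 17 were lower and 1, Rps27, higher, beside 4.07% lower and 3.07% higher of all genes. Among the 2996 genes with the shortest transcripts, 331 were lower without overlap. The ribosomal median of -0.62 was -0.69 without the sparse libraries, -0.36 without short MCh library 4, and -0.21 with the length trend removed, when 4 were lower without overlap. Ribosomal protein genes have many processed copies, so their reads may be shared. Rpl38 differed by -0.87 ± 0.24 and Rpl32 by -0.83 ± 0.24. Of 30 nuclear-encoded respiratory chain genes, with a median transcript of 754 bases, 29 were negative and 4 lower without overlap, beside 4.07% of all genes and 331 of the 2996 genes with the shortest transcripts. Their median was -0.44, -0.60 without the sparse libraries, -0.25 without short MCh library 4 and -0.04 with the length trend removed. Their complex III subunit Uqcrq differed by -0.87 ± 0.25. Library length bias moved with both groups, and its part in them was not tested beyond this correction.

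Interferon, lymphocyte and mucous cell genes were lower on the median, with wide spread between the short MCh lungs. All 24 interferon-stimulated genes were negative, with a median of -0.74. Without overlap, 1 of the 24 was lower, a share near the 4.07% of all genes, and 0 were with the length trend removed. A total of 20 of 24 were negative without the sparse libraries (median -0.38). Ifit3, an antiviral tetratricopeptide protein, was at 68.6, 87.1, 53.8 and 61.8 FPKM in long MCh lungs, against 87.9, 94.6, 95.2 and 154 FPKM in short MCh lungs (-0.65 ± 0.22). The Ifit3 groups came within 1 FPKM of each other without overlapping, and Ifi27l2a differed by -1.49 ± 0.49. The T cell list had 18 of 18 negative and 0 without overlap, and its median was -0.57, -0.21 without short MCh library 1 and -0.14 without the sparse libraries. Summed T cell markers were at 54.1 to 58.5 FPKM in long MCh lungs and 57.2 to 188 FPKM in short MCh lungs. The cytotoxic list had 12 of 14 negative with a median of -0.77 (-0.45 without the sparse libraries), where Gzmb differed by -0.83 ± 0.33. The B cell median of -0.60 was -0.06 without short MCh library 1, -0.28 without long MCh library a and 0.31 without the sparse libraries. PBS lungs had long minus short medians of -0.04 for interferon, -0.03 for T cell and -0.02 for cytotoxic genes. In bulk tissue, fewer cells of a type and less RNA per cell cannot be told apart.

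Goblet cell genes had the lowest median of these lists, -1.20, with 12 of 14 negative and 0 without overlap. Clca1, a secreted protein of mucous cells induced by IL-13, was at 0.0681, 2.20, 2.71 and 0.112 FPKM in long MCh lungs, against 158, 49.6, 0.136 and 18.7 FPKM in short MCh lungs (-3.75 ± 1.45), and short MCh library 3 lay within the long MCh range. Muc5b, the resident gel-forming mucin of mouse airways, was at 16.5, 85.6, 76.7 and 39.3 FPKM in long MCh lungs, against 260.4, 51.9, 36.3 and 28.5 FPKM in short MCh lungs, where library 1 alone stood high (-0.42 ± 0.71, and 0.27 without that library). Without short MCh library 1 the goblet median was -0.61, and without the 3 sparse libraries -0.21. Of the 21 genes of the type 2 cytokine and chemokine list, 13 were tested. Il4 and Il9 were not among them, being listed at 0 in all 8 libraries. The type 2 list had 10 of 13 negative and 2 lower without overlap (beside 4.07% of all genes). The type 2 median was -0.49 (-0.38 without the sparse libraries, -0.22 without short MCh library 1). It was -0.18 with the length trend removed and -0.07 without the filter on low values. Of its members Ccl11, the eosinophil attractant eotaxin, was at 1.34, 4.74, 0 and 3.19 FPKM in long MCh lungs, against 20.5, 7.25, 7.09 and 5.79 FPKM in short MCh lungs, with no overlap (-2.19 ± 0.69). Without the sparse libraries, which hold its lowest long and highest short MCh values, the Ccl11 difference was -0.71. Club cell genes were negative in 10 of 11, with 4 lower (beside 4.07% of all genes) and 0 higher without overlap. The club cell median was -0.47 (-0.35 without the sparse libraries). With the length trend removed, 1 was lower without overlap and the median was -0.28. Aldh1a1, a retinal dehydrogenase of these cells, differed by -0.42 ± 0.16.

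The receptors and effectors of MCh had no common direction. The muscarinic and contraction signalling list was split, with 16 of 28 positive. Without overlap, 2 were higher (beside 3.07% of all genes) and 0 lower. The median was 0.23 (0.21 without the sparse libraries, 0.10 with the length trend removed). That median was 0.03 without short MCh library 4, 0.11 without long MCh library a, 0.11 without short MCh library 1 and 0.001 with array weights. Among the receptors, Chrm1 differed by 0.26 ± 0.39, the autoreceptor Chrm2 by -0.55 ± 0.46 and the contraction-driving Chrm3 by -0.39 ± 0.42, and the Chrm2 difference turned to 0.47 without the sparse libraries. Gnaq, the G protein subunit that Chrm3 couples to, was at 84.2, 84.6, 101 and 77.8 FPKM in long MCh lungs, against 52.1, 68.96, 59.9 and 33.8 FPKM in short MCh lungs, with no overlap (0.73 ± 0.22). Rgs2, which shortens Gq signalling, differed by -0.48 ± 0.18. Smooth muscle contractile genes were negative in 12 of 20, with 1 lower without overlap, a share near the 4.07% of all genes. The smooth muscle median was -0.11 (-0.05 without the sparse libraries, and -0.20 without short MCh library 4 to -0.02 without short MCh library 1). Acta2, smooth muscle actin, was at 98.4, 99.2, 105 and 128 FPKM in long MCh lungs, against 150.1, 127, 125 and 134 FPKM in short MCh lungs, with long MCh library d inside the short MCh range (-0.32 ± 0.14). Myh11 differed by 0.38 ± 0.45 and was -0.14 without short MCh library 4.

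Among alveolar and vascular genes, some surface and growth-factor genes were higher. Alveolar type 1 genes were positive in 8 of 12, with 3 higher (beside 3.07% of all genes) and 0 lower without overlap. The median was 0.24 (0.20 without the sparse libraries, 0.10 without short MCh library 1). Akap5, a kinase anchor expressed in these cells, was at 481, 586, 560.2 and 605 FPKM in long MCh lungs, against 409, 388, 339 and 171 FPKM in short MCh lungs (0.84 ± 0.26). Vegfa, which type 1 cells supply to capillaries, was at 624, 681, 750.5 and 694 FPKM in long MCh lungs, against 527, 542, 522 and 319.8 FPKM in short MCh lungs (0.55 ± 0.20). Neither overlapped, and short MCh library 4 was the lowest for each. Akap5 had the largest positive difference of the 12 genes, whereas the type 1 markers Ager and Hopx had overlapping groups. Ager was at 322, 291, 286 and 324.5 FPKM in long MCh lungs, against 243, 305, 295 and 421 FPKM in short MCh lungs. Hopx was at 730, 385, 663 and 354 FPKM in long MCh lungs, against 600, 397, 375 and 853 FPKM in short MCh lungs. Endothelial genes were positive in 11 of 15 and negative in 4, with 1 higher (beside 3.07% of all genes) and 0 lower without overlap. Their median was 0.29 (0.32 without the sparse libraries, 0.17 without short MCh library 1 and 0.19 without short MCh library 4). Their differences ran from -0.37 for Gpihbp1 to 0.88 ± 0.30 for von Willebrand factor, Vwf. The VEGF receptor Kdr differed by 0.84 ± 0.28. Its groups overlapped, with 67.6 FPKM in long MCh library a and 74.45 FPKM in short MCh library 3. Alveolar type 2 genes were evenly divided, 7 and 7, with a median of 0.01.

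Mesothelial genes were positive in 8 of 9, with 2 higher (beside 3.07% of all genes) and 0 lower without overlap. The median was 0.34 (0.66 without the sparse libraries, 0.61 without long MCh library a, 0.56 without short MCh library 1 and 0.66 in PBS lungs). Wt1, the transcription factor of the pleural lining, was at 1.86, 2.001, 1.44 and 1.81 FPKM in long MCh lungs, against 1.13, 0.616, 0.886 and 1.26 FPKM in short MCh lungs, with no overlap (0.65 ± 0.25). Cholesterol and fatty acid synthesis genes were positive in 16 of 21, with 3 higher (beside 3.07% of all genes) and 0 lower without overlap. Their median was 0.21 (0.36 without the sparse libraries, 0.09 without short MCh library 4). Cell cycle genes were negative in 21 of 24 with a median of -0.28, which turned to 0.02 without the sparse libraries. Cardiac muscle genes, which enter with vein wall or heart tissue, had a median of -0.93 (-0.90 without the sparse libraries). It was -0.49 without long MCh library d, -0.59 without short MCh library 1 and -1.53 without short MCh library 4. Their summed levels were 81.6 to 538 FPKM in long MCh lungs and 97.7 to 921 FPKM in short MCh lungs, and their median in PBS lungs was -1.55. Their level varied widely within both protocols, and its part in other results was not tested.

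**Figure D4:**
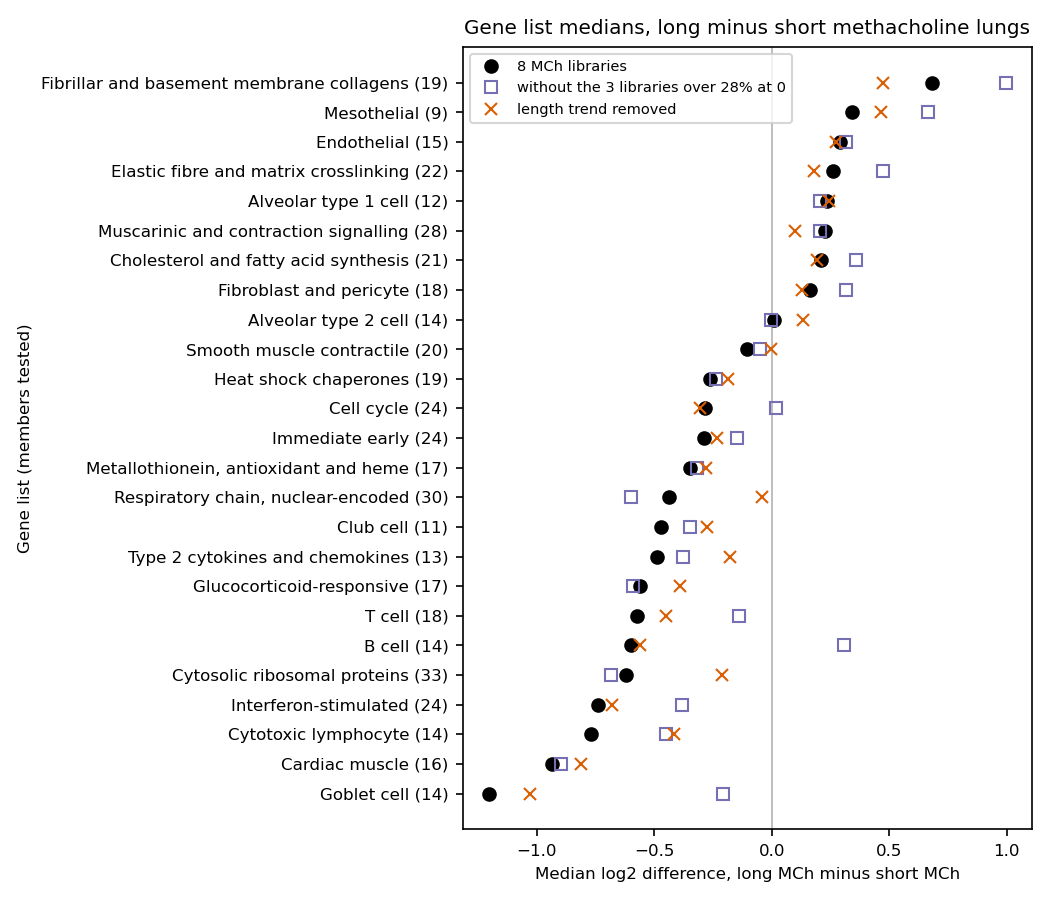
Median log2 difference of long minus short MCh lungs (x axis) for 25 gene lists, with all 8 libraries (black circles), without the 3 sparse libraries (open squares) and with the length trend removed (crosses). The collagen median lies right of 0 in all 3, while the goblet cell median is -1.20 with 8 libraries and -0.21 without the sparse ones, and the respiratory chain median is -0.44 with 8 libraries and -0.04 with the length trend removed.

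Whether the protocol difference in MCh lungs differed from that in PBS lungs was tested directly. Of 15357 genes, 0 had an adjusted p under 0.05 for the difference of differences (limma), and 433 (2.82%) had an unadjusted p under 0.05. A p that misses the threshold does not show that the protocol differences were alike. Side by side, some type 2 and mucous genes had opposite signs in MCh and PBS lungs. Retnla, the macrophage and epithelial gene RELM-alpha, was at 41.1, 111, 63.03 and 103 FPKM in long MCh lungs, against 299, 177, 82.4 and 470.1 FPKM in short MCh lungs. In PBS lungs it was at 1430, 1647 and 224 FPKM under the long protocol, against 128, 46.5 and 19.9 FPKM under the short one. Long was thus lower than short in MCh lungs (-1.52) and higher in PBS lungs (4.02), and the difference of differences was -5.55 ± 1.09 (adjusted p = 0.975). Clca1 gave -3.75 in MCh lungs and 4.05 in PBS lungs. The goblet list had a PBS median of 0.75 and a median difference of differences of -2.06, and the type 2 list 0.36 and -1.10. These values include the sparse MCh libraries, without which the goblet median in MCh lungs moved from -1.20 to -0.21. The stress lists were not alike in their difference of differences. The median difference of differences was 0.67 for both the glucocorticoid and the heat shock list, 0.09 for the immediate early list and -0.21 for the metallothionein, antioxidant and heme list. For the clock list it was 0.72. Hspa1b differed by -1.12 in MCh lungs and -3.57 in PBS lungs. For collagens the median was 0.04.

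**Figure D5:**
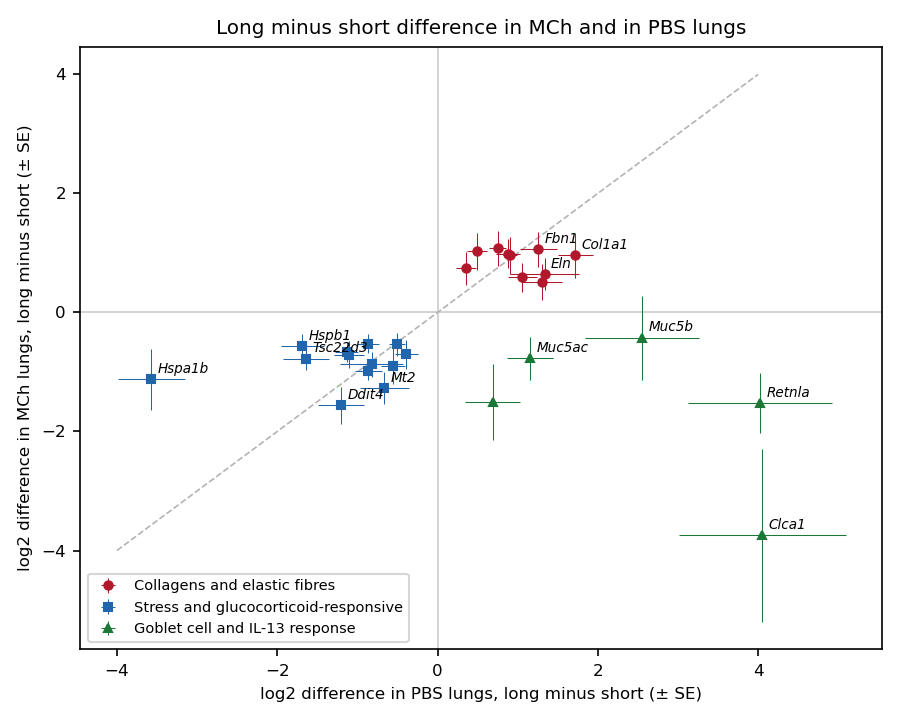
Log2 difference of long minus short protocol in MCh lungs (y axis) against that in PBS lungs (x axis) for selected named genes, 1 point per gene with bars of 1 SE, and a dashed line of equality. Stress genes such as Tsc22d3 and Hspa1b are negative on both axes, matrix genes such as Fbn1 and Col1a1 positive on both, and Retnla and Clca1 negative in MCh and positive in PBS lungs.

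The same test against OVA lungs called 78 of 15557 genes (0.501%), of which 69 (0.444%) were positive and 9 (0.0579%) negative. The count was 262 without the sparse libraries, 1432 without short MCh library 4 and 45 without short MCh library 2. It was 50 without short OVA library 1 and 49 without short OVA library 4. The length bias of the libraries moved with the OVA protocols too, with rank correlations of 0.26 to 0.36 in long OVA and -0.48 to -0.39 in short OVA libraries, and its part in these calls was not tested. A positive value means that long over short was higher in MCh than in OVA lungs. For Jchain, Cd209a, Timp1 and Abca17 the larger protocol difference lay in the OVA lungs. Jchain, the joining chain of secreted IgA and IgM, was at 18.9, 20.2, 37.6 and 20.7 FPKM in long MCh lungs, against 57.5, 28, 14.97 and 36.5 FPKM in short MCh lungs. In OVA lungs it was at 1768, 888, 653 and 1008 FPKM under the long protocol, against 98.4, 32.6, 101 and 27.1 FPKM under the short one. MCh groups overlapped, OVA groups did not, and the difference of differences was -4.58 ± 0.66 (adjusted p = 0.0033, limma). Cd209a, a lectin of monocyte-derived dendritic cells, was at 10.9, 3.42, 7.26 and 3.84 FPKM in long MCh lungs and 1.54, 2.92, 4.02 and 4.15 FPKM in short MCh lungs. It was at 4.43, 2.98, 4.74 and 4.49 FPKM in long OVA lungs and 24.8, 23.4, 19.1 and 18.8 FPKM in short OVA lungs (3.09 ± 0.46, adjusted p = 0.00394, limma). The OVA groups lay far apart and the MCh groups overlapped.

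Timp1, the inhibitor of matrix metalloproteinases, was at 4.33, 1.88, 4.23 and 3.29 FPKM in long OVA lungs, against 41.1, 32.1, 31.7 and 44.1 FPKM in short OVA lungs, while its log2 fold change in MCh lungs was 0.29 ± 0.47 (difference 3.59 ± 0.55, adjusted p = 0.00471, limma). Selp, the P-selectin of activated endothelium, had a difference of 3.59 ± 0.61 and the leukotriene-degrading Cyp4f18 one of 2.33 ± 0.37. For Ddit4 the larger difference lay in the MCh lungs. It was at 7.06, 7.39, 8.70 and 6.85 FPKM in long OVA lungs, against 5.89, 5.70, 7.25 and 6.95 FPKM in short OVA lungs, with overlapping groups, and the 4 short MCh values given above exceeded all of these. Its difference of differences was -1.76 ± 0.35 (adjusted p = 0.0329, limma), and it lost the call under some other settings. Abca17, an ABC transporter gene, was at 25.5, 21.8, 24.3 and 21.02 FPKM in long OVA lungs, against 2.63, 2.93, 4.03 and 4.42 FPKM in short OVA lungs, and differed by 0.28 in MCh lungs (-2.31 ± 0.30, adjusted p = 0.00138, limma).

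Mdm4, which encodes a p53 inhibitor, showed a split that crosses the protocols. It was at 8.64, 133, 13.5 and 125 FPKM in long MCh lungs, against 15.7, 110, 111 and 10.5 FPKM in short MCh lungs. Long MCh libraries a and c and short MCh libraries 1 and 4 were low, and the other 4 were high. The low ones are the 3 sparse libraries and the one with the strongest length bias. In PBS lungs, none of them sparse, the long minus short Mdm4 difference was -1.51. The cause of the split was not tested.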

How the data were processed

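Total RNA from whole lungs was extracted with RNeasy columns, treated with DNase I and made into TruSeq Stranded Total RNA libraries, per the labels' protocols. Reads were trimmed with Trim Galore and aligned with STAR to mm10, and DESeq2 was used, per the submitters' processing notes, which give no versions. The authors deposited FPKM values per gene and per transcript, and the program that made them is not given in the sources used here. FPKM divides fragments by transcript length and library size, so a library with degraded RNA or length bias shifts short against long genes. No counts were used here, so depth was estimated from the smallest steps of the FPKM values.

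Long MCh columns are numbered 1, 2, 4 and 5, and cannot be matched to the labelled replicates 1 to 4, so they are called a to d. Labels name the libraries biological replicates. No 2 libraries held identical values. Genes with at least 0.1 FPKM in at least 3 of the libraries compared were kept, and log2(FPKM + 0.5) was fitted by limma 3.58.1 (lmFit, eBayes with trend) in R 4.3.3, two-sided, with Benjamini-Hochberg adjustment over all genes tested. Fold changes are on this log2(FPKM + 0.5) scale, which understates those of low genes. The main comparison used the 8 MCh libraries alone. The fit was tested on simulated data. The comparison and its 56 gene lists were chosen with earlier results of these data known, so lists are described by counts and medians with no test. Named genes were the called genes with a mean of at least 1 FPKM over the 8 libraries (up to 12 in each direction, in the main fit and in the fit without the sparse libraries), the 10 smallest p in each direction, up to 4 members of each list by p, 26 key genes, and the 5 largest called in each direction in the PBS and OVA contrasts. A part of these is described. Alternatives changed the pseudocount, filter, scaling, fit, transcript table and libraries.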

Additional observations from a re-analysis of the deposited data

Results flagged for a closer look

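In 154 groups of 4 libraries, the highest or lowest library of 13 lay far enough from the other 3 to pass Dixon's critical value, where chance gives about 1 in 20. Short MCh library 4 accounted for 5 of them, short MCh library 1 for 3, long MCh libraries a and c for 2 each and long MCh library d for 1.

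In long MCh library a, Ccnd1 was at 36.1 FPKM (others 32.2 to 32.7) and Mt1 at 104 FPKM (others 41.1 to 45.9). In long MCh library c, Scgb1a1 was at 33660 FPKM (others 39510 to 39650) and Jchain at 37.6 FPKM (others 18.9 to 20.7). In long MCh library d, Fbn1 was at 96.2 FPKM (others 58.8 to 63.9).

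In short MCh library 1, Muc5b was at 260.4 FPKM (others 28.5 to 51.9), Ccl11 at 20.5 FPKM (others 5.79 to 7.25) and Nfil3 at 2.46 FPKM (others 1.92 to 1.93). In short MCh library 4, Uqcrq was at 93.9 FPKM (others 41.9 to 49.1), Ifit3 at 154 FPKM (others 87.9 to 95.2) and Sftpc at 13050 FPKM (others 6031 to 6373). In the same library Col12a1 was at 2.50 FPKM (others 6.24 to 6.90) and Vegfa at 319.8 FPKM (others 522 to 542). These values move with the length bias of that library, and its part in them was not tested.

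The difference between the MCh and the OVA long minus short values, tested as an interaction in limma, was 3.59 for Timp1, 3.59 for Selp, 3.09 for Cd209a, 2.33 for Cyp4f18, -4.58 for Jchain, -2.31 for Abca17 and -1.76 for Ddit4 on the log2 scale.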

How the results depend on the processing

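No paired analysis was possible because the long and short lungs came from separate mice, and the labels name no pairs. Pairing by replicate number was not possible either, because the long MCh columns carry numbers that do not match the labelled replicates. The 2 calls between long and short MCh lungs were 684 with array weights, 507 (198 higher, 309 lower) when all 22 libraries shared 1 fit, and 0 without the 3 sparse libraries. They were 2 to 3 with 1 library left out. Rps27 had an adjusted p of 0.0571 in the 22-library fit. The difference from PBS called 4 genes with array weights and 0 to 1 with 1 library left out (1 without long PBS library 3). The 78 calls of the difference from OVA were 39 with a pseudocount of 0.1, 145 with quantile normalization, 4509 with array weights, 130 with all 22 libraries, 262 without the sparse libraries and 45 to 1432 with 1 library left out. Ddit4 lost its OVA call in 11 alternatives, and Jchain, Cd209a, Timp1, Selp, Cyp4f18 and Abca17 in none. The 1070 genes without overlap (460 higher, 610 lower) were 5566 without the sparse libraries. Their split was 559 and 533 with median-of-ratios scaling and 646 and 503 with quantile normalization. The causes were not tested.

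Some small differences turned round. Sftpc was 0.052 with quantile normalization and Scgb1a1 0.259 with the length trend removed. With array weights Muc5b was 0.320 and Chrm2 0.163, and without the sparse libraries they were 0.614 and 0.474. With 1 library left out Muc5b ranged from -0.788 to 0.269 (0.054 without long MCh a, 0.269 without short MCh 1), Chrm3 from -0.687 to 0.027 (without long MCh c), Fos from -0.570 to 0.105 (without short MCh 1) and Myh11 from -0.142 (without short MCh 4) to 0.648. The B cell median was 0.152 with array weights and 0.308 without the sparse libraries, and the cell cycle median 0.018 without them. The alveolar type 2 median was -0.025 and -0.001 in these settings, and -0.078 to 0.032 with 1 library left out. No counts were used here, so the precision of low values is unknown.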
